A study of Mus musculus with 2 samples.

Results

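Reelin signalling was followed through 4 genes, the ligand Reln, its receptors Vldlr and Lrp8 and the intracellular adaptor Dab1. They were picked out of the matrices by gene symbol, and each matched 1 of the 32285 genes in the count matrices. Reelin is a large secreted glycoprotein of the brain's extracellular matrix. In the developing cortex it is released mainly by Cajal-Retzius cells, early neurons of the marginal zone, and later also by interneurons. On migrating neurons it binds the VLDL receptor and the ApoE receptor encoded by Lrp8, both of the LDL receptor family. Receptor clustering leads Src-family kinases to phosphorylate Dab1, which passes the signal to the cytoskeleton and to adhesion molecules and is itself degraded afterwards. Loss of reelin, of both receptors or of Dab1 disturbs the layering of the cortex.

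The cells came from the corticoseptal boundary, the midline tissue between cortex and septum, of mouse embryos at E16.5. There was 1 library from wild-type embryos (WT) and 1 from Tcf4f/f;Emx1Cre embryos (cKO), in which a Cre recombinase driven from Emx1 removes floxed Tcf4 in the lineage of the dorsal telencephalon. Cells of the subpallium, which give rise to most GABAergic neurons, lie outside that lineage. How many embryos went into each library is not given in the sources used here.

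A UMI marks 1 captured transcript. There were 116998498 UMIs in WT and 121321247 in cKO. The cells kept were 8634 from WT and 10142 from cKO, at median depths of 9660 and 8152 UMIs, and 21 cell barcodes occurred in both sets. Tcf4, the targeted gene, was lower in cKO in each of the 9 named classes, with ratios from 0.448 in Cajal-Retzius cells to 0.934 in oligodendrocyte progenitors and 0.885 in GABAergic neurons. The libraries count the ends of transcripts, so these UMIs need not lie in the deleted exon, which is not given in the sources used here. Levels below are UMIs of a gene per 1000000 UMIs of the same cells (CPM), ratios are cKO over WT, and brackets give 95% intervals. With 1 library per genotype no difference below could be tested against the spread between embryos, and the intervals cover counting error only. Differences in the number of cells per library do not enter CPM, but differences in which cells make up a class do.

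Reln (ENSMUSG00000042453) spans chromosome 5 from 21884454 to 22344702 on the minus strand of mm10. Vldlr (ENSMUSG00000024924) lies on chromosome 19 from 27216484 to 27254231, Lrp8 (ENSMUSG00000028613) on chromosome 4 from 107802261 to 107876840, and Dab1 (ENSMUSG00000028519) on chromosome 4 from 103619359 to 104744844, each on the plus strand. Antisense genes lie inside Reln and Lrp8, but they held few UMIs: Gm10475 in Reln had 21 in WT and 6 in cKO, and Lrp8os2 in Lrp8 had 34 and 37. Whether counting used strand is not given, so sense and antisense reads could not be told apart. The protein made from Tcf4 binds DNA at E-boxes, the letters CANNTG, which were searched on both strands. The 250 bases before the RefSeq start (build GRCm38.p6) are shown for the ligand and for 1 receptor start, the windows that hold no annotated exon, with E-boxes in capitals. The Reln window covers chr5:22344706-22344955 on the minus strand, and the Vldlr window chr19:27216234-27216483 on the plus strand.
Reln: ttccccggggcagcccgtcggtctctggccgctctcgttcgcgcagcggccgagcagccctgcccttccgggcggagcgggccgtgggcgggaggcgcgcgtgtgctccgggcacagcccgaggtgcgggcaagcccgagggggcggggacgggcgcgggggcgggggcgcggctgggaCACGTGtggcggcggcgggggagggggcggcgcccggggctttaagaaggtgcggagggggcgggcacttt
Vldlr: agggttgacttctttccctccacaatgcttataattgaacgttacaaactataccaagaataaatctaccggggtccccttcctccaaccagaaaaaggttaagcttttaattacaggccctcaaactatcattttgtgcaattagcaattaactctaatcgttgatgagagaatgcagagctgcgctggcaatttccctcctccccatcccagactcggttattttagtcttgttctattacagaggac
The Reln window was 80.0% G and C and held 1 E-box, CACGTG. The Vldlr window was 41.6% G and C and held none. Across 32851 promoter windows of this length, 66.2% held at least 1 CANNTG, so a single match was common. At least 2 were in 31.8% of windows and at least 3 in 12.2%. The second Vldlr start had 3 such matches, the starts of Lrp8 had 0, 4 and 2, and those of Dab1 had 1 and 2. CAGGTG was in both Dab1 windows and also in the Lrp8 windows with 4 and 2 matches. With its reverse complement CACCTG, this form occurred in 17.2% of windows. Of the 250 bases, 182 and 141 in the Dab1 windows and 89 and 142 in those Lrp8 windows lay in annotated exons. In the second Vldlr window 179 bases did, and 43 in the Lrp8 window without a match. The starts of the Dab1 window with 1 match and of the Lrp8 window with 2 were not found in a transcript. These matches describe letters in the sequence and say nothing of whether a factor binds there.

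Reln was concentrated in a very small group of cells. Cajal-Retzius cells, cluster 27, were 74 of the WT and 63 of the cKO cells, and they held 51.4% (49.97 to 52.8) of all Reln UMIs in WT and 49.1% (47.6 to 50.7) in cKO. All 8 marker genes of the class marked this cluster without Reln among them. Trp73, a p53-family factor typical of Cajal-Retzius cells, stood at 211 (WT) and 246 CPM (cKO), against 0.600 and 0.651 CPM in the other cells. Reln stood there at 2554 CPM (2456 to 2654) in WT, from 2575 UMIs, and at 2894 CPM (2771 to 3020) in cKO, from 2106 UMIs. The ratio was 1.13 (1.07 to 1.20), and with each cell thinned to 3000 UMIs the log2 ratio of 0.18 came to 0.038. Every cell of the class in both libraries carried Reln. The median was 34.5 UMIs per cell in WT, from 5 to 80, and 30 in cKO, from 6 to 74, while the cells' median depth was 12434 UMIs in WT and 10989 in cKO. The 2 distributions overlapped over nearly their whole range.

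**Figure D1:**
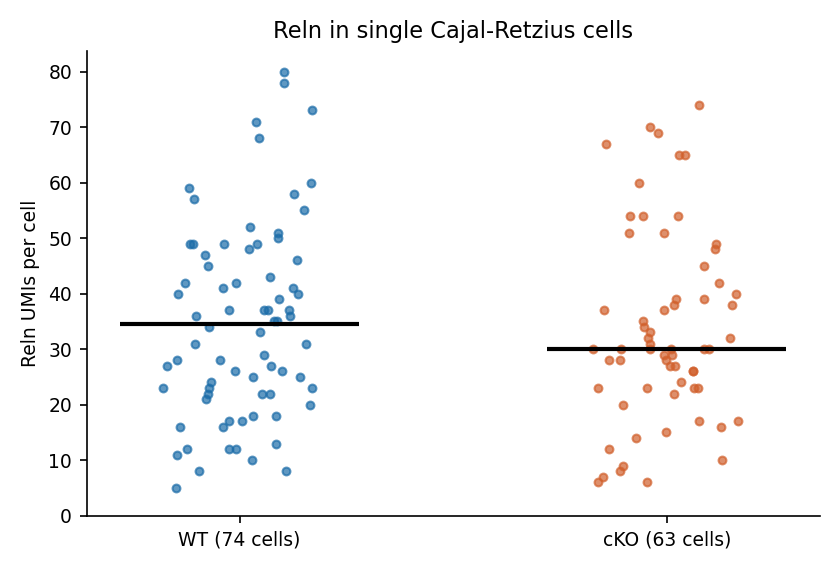
Reln UMIs in each Cajal-Retzius cell, 74 WT and 63 cKO cells, with black bars at the medians of 34.5 and 30. Each point is 1 cell, the horizontal spread within a group is only for display, and cells of 1 library are not replicates.

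Cells with at least 10 Reln UMIs were rare elsewhere. There were 89 of them in WT, of which 71 (79.8%) were Cajal-Retzius cells, and 67 in cKO, of which 58 (86.6%) were. Among the rest, 9 WT and 4 cKO cells were glutamatergic neurons, and 7 WT and 5 cKO cells lay in unnamed clusters. In WT 1 further cell was a GABAergic neuron and 1 an intermediate progenitor. The background is low: free RNA, read from droplets of 10 to 100 UMIs, held Reln at 108 (WT) and 68.3 CPM (cKO). At the estimated free share of a neuron's UMIs, 2.25% and 1.19%, it would give 2.43 and 0.815 CPM. Astroglia, with the cycling progenitors the lowest of the large classes, stood at 5.17 CPM (4.12 to 6.41) in WT and 5.09 CPM in cKO, and cycling progenitors at 4.62 and 4.24 CPM. Microglia had 4 Reln UMIs in WT and 0 in cKO, where the upper bound is 5.83 CPM. In cells thinned to 3000 UMIs, 98.6% of WT and 100% of cKO Cajal-Retzius cells had a Reln UMI, against 1.54% and 1.22% of astroglia, whose median depths were 9259 and 8058 UMIs.

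Below the Cajal-Retzius cells came several groups of neurons. Cluster 24, which carried the Cajal-Retzius markers Lhx1 and Nhlh2 but had Ndnf at 0 and Trp73 at 0.641 (WT) and 8.92 CPM (cKO), stayed unnamed. Its 113 WT cells held Reln at 208 CPM (186 to 232) and its 100 cKO cells at 215 CPM (190 to 242). Cluster 17, also unnamed and nearest to GABAergic neurons, with the septal factor Six3 among its leading genes, stood at 156 and 150 CPM. Neither cluster differed between the libraries beyond counting error, with ratios of 1.03 (0.874 to 1.22) and 0.960 (0.822 to 1.12). The Cajal-Retzius name required Trp73, a rule set after the clusters were seen, and this rule left cluster 24 out. Without it cluster 24 was named Cajal-Retzius, and the class then held 57.8% of Reln UMIs in WT and 55.3% in cKO.

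GABAergic neurons as a class held Reln at 33.7 CPM in WT (31.1 to 36.4) and 27.8 CPM in cKO (25.6 to 30.3), a ratio of 0.827 (0.737 to 0.929). Their WT level overlapped that of glutamatergic neurons, 28.8 CPM (26.5 to 31.4), and the latter overlapped that of intermediate progenitors, 26.4 CPM (23.1 to 30.01), so the order of these 3 classes was not resolved between neighbours. Among the GABAergic clusters the levels ranged widely. The highest was cluster 30, with Npas1, Htr3a and Prox1os of caudal-type interneurons, at 98.0 (WT) and 89.5 CPM (cKO). Cluster 26, which expresses the interneuron peptides Sst and Npy, stood at 85.3 and 67.1 CPM. The lowest WT levels were those of cluster 25, at 12.7 CPM, and of cluster 5, at 14.2 CPM and 13.9 CPM in cKO. In 7 of the 8 GABAergic clusters Reln was lower in cKO, and in each of these the interval of the ratio included 1.

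**Figure D2:**
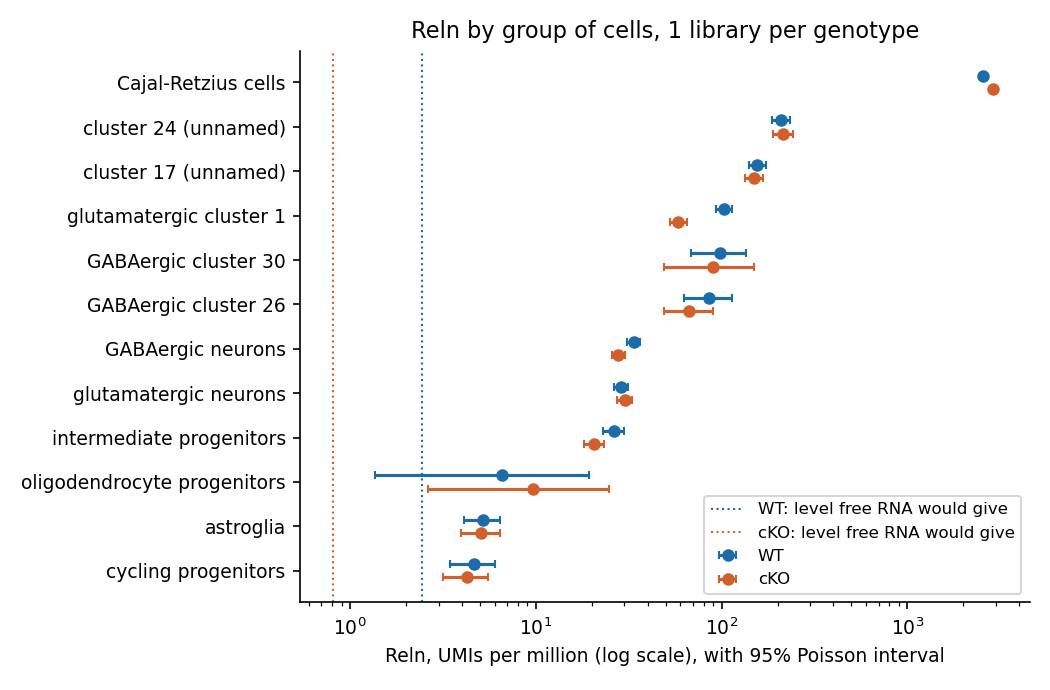
Reln level in CPM on a log scale, by class and in the 5 clusters with the most Reln outside the Cajal-Retzius cells, with 95% Poisson intervals (WT blue, cKO orange, 1 library each). Cajal-Retzius cells lie at 2554 and 2894, more than any other group shown, and dotted lines mark the 2.43 (WT) and 0.815 (cKO) that free RNA would give.

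In glutamatergic neurons Reln was lower in cKO in the newborn cells, while the whole class showed no settled direction. The class's Reln level was 28.8 CPM in WT and 30.2 CPM in cKO, a ratio of 1.05 (0.923 to 1.19) whose sign held in 5 of 12 alternatives. Different clusters made up most of it: 1149 of 1591 WT neurons lay in cluster 4, and in cKO 818 of 1725 lay in cluster 1, 678 in cluster 8 and 222 in cluster 23. A cluster held almost only by 1 library may be that library rather than a type of cell. Cluster 1, the newborn neurons with Neurod1, Ebf1 and Sema3c, was the one glutamatergic cluster well filled in both libraries, with 423 WT cells. There Reln stood at 103 CPM in WT (93.2 to 114) and 58.5 CPM in cKO (52.5 to 64.9). The ratio was 0.567 (0.490 to 0.656). In the more mature cluster 4 the WT level was 9.81 CPM, and in cluster 8 the cKO level was 4.87 CPM. Intermediate progenitors, the daughters of radial glia that give rise to glutamatergic neurons, stood at 26.4 and 20.6 CPM and a ratio of 0.781 (0.649 to 0.940). Most of it was in their later cluster 0, at 36.0 and 25.7 CPM.

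Marker genes of other cells were measured beside Reln in cluster 1. The summed level of the 8 Cajal-Retzius markers there was 498 CPM in WT and 379 CPM in cKO, with 2 of 8 higher in cKO. Nearly all of that was Calb2 and Nhlh2, while Trp73 was at 0 in WT, and Lhx1 and Ndnf were at 0 in cKO. The 9 markers of intermediate progenitors summed to 865 and 637 CPM. Of the nearest neighbours of its cells, 88.3% came from the same library. A finer clustering was made with all settings kept but the resolution, at 2. How many cells its clusters share with cluster 1 was not counted. Fine cluster 15, led by Ebf1, Lhx9, Tcf15 and Ntf3, with 195 WT and 327 cKO cells, held Reln at 208 (WT) and 144 CPM (cKO), a ratio of 0.689 (0.596 to 0.796). Fine cluster 13, led by Sln, Nos1 and Neurod2, had 9 WT and 527 cKO cells and a cKO level of 8.12 CPM. Reln was thus also lower in cKO in fine cluster 15, which both libraries filled. Dab1 differed there too, with a ratio of 2.23, and whether its cells matched between the libraries was not tested. The part of cell composition in the Reln difference of cluster 1 was not tested either.

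Vldlr, the VLDL receptor, was highest in GABAergic neurons among the large classes. They held 69.5 CPM in WT (65.8 to 73.4) and 81.7 CPM in cKO (77.7 to 85.7), a ratio of 1.17 (1.09 to 1.26), and 44.8% and 48.0% of all Vldlr UMIs. Glutamatergic neurons held 32.7 CPM in WT (30.2 to 35.4) and 41.1 CPM in cKO (37.9 to 44.4), a ratio of 1.26 (1.12 to 1.41). Astroglia stood at 20.9 and 24.2 CPM and cycling progenitors at 17.8 and 14.01 CPM, the latter with a ratio of 0.788 (0.640 to 0.969). Intermediate progenitors had the lowest level of the large classes, 4.53 CPM in WT and 6.75 CPM in cKO, where the free RNA would give 0.898 and 0.420 CPM. Cluster 2, with the septal gene Trpc4 at its head, held 110 CPM in WT (101 to 120) and 122 CPM in cKO (114 to 131), and cluster 30 held 139 CPM (103 to 183) and 95.9 CPM (53.7 to 158). Their intervals overlapped in both libraries. The GABAergic clusters did not move together, since cluster 3 had a ratio of 1.23 (1.06 to 1.43), cluster 22 one of 1.53 (1.08 to 2.16), and cluster 25 one of 0.400 (0.246 to 0.667) with 30 WT cells. When the clusters were given equal weight, the GABAergic log2 ratio of 0.22 was -0.069.

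From the later intermediate progenitors to the glutamatergic clusters, Vldlr was higher in the more mature cells. It stood at 4.41 CPM in cluster 0 and 13.5 CPM in cluster 1 in WT, and at 37.8 CPM (34.7 to 41.0) in cluster 4. In cKO it was 7.12 CPM in cluster 0, 20.1 CPM in cluster 1, 52.7 CPM (47.2 to 58.6) in cluster 8 and 60.8 CPM (51.9 to 70.7) in cluster 23. Within cluster 1 the ratio was 1.49 (1.07 to 2.102).

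Cajal-Retzius cells themselves carried Vldlr, and less of it in cKO. The 74 WT cells held 62 UMIs, 61.5 CPM (47.1 to 78.8), and the 63 cKO cells 22 UMIs, 30.2 CPM (18.9 to 45.8), a ratio of 0.492 (0.288 to 0.811). Vldlr was the only one of the 4 genes past 1.5-fold in this class, where 10.6% of 8298 genes were past it in either direction and 5.92% were lower; all counts of genes past 1.5-fold use CPM plus 5. Cluster 24 was left out of the class only by the Trp73 rule, which was set after the clusters were seen. With cluster 24 counted in the class, or with unnamed clusters added to the nearest class, the Vldlr log2 ratio of -0.92 was -0.43, within 1.5-fold. The summed level of the 10 GABAergic markers in these cells was 57.5 CPM in WT and 30.2 CPM in cKO, against 3449 CPM in WT GABAergic neurons, with 4 of 10 higher in cKO, Lhx6 at 0 in WT and Dlx5 at 0 in cKO. Its part in the Vldlr difference was not tested. In cells thinned to 3000 UMIs 18.9% (10.7 to 29.7) of WT and 9.52% (3.58 to 19.6) of cKO Cajal-Retzius cells had a Vldlr UMI, and these intervals overlapped. Microglia, at median depths of 10061 and 8746 UMIs, had 4 Vldlr UMIs in WT and 2 in cKO, in 3.77% and 1.72% of their cells before thinning, and none after it.

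Lrp8, the ApoE receptor that mediates the migration of later-born neurons, followed another course. Its highest level among the named classes was in intermediate progenitors, 319 CPM in WT (307 to 331) and 293 CPM in cKO (283 to 303), and then in GABAergic neurons, 173 and 159 CPM, and glutamatergic neurons, 153 CPM (147 to 159) and 159 CPM (152 to 165). In cKO the last 2 classes overlapped, whereas in WT they did not. Astroglia held 113 and 101 CPM, Cajal-Retzius cells 77.4 and 94.8 CPM, and cycling progenitors 61.1 and 55.9 CPM. The ratio was 0.917 (0.872 to 0.965) in intermediate progenitors, 0.921 (0.876 to 0.967) in GABAergic neurons and 0.899 (0.838 to 0.965) in astroglia, where the log2 ratio of -0.15 was 0.14 with clusters weighted equally. In glutamatergic neurons it was 1.04 (0.982 to 1.10), an interval that includes 1, and the sign there changed with the clustering.

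From progenitors to mature neurons Lrp8 was lower in the later clusters, where Vldlr was higher; between clusters 7 and 0 Vldlr hardly differed, at 4.73 and 4.41 CPM in WT. It stood at 385 CPM in WT (365 to 407) and 323 CPM in cKO (305 to 342) in cluster 7, the Neurog2-expressing intermediate progenitors, at 278 and 279 CPM in cluster 0, and at 237 and 212 CPM in cluster 1. The mature clusters held 133 CPM (cluster 4, WT), 139 CPM (cluster 8, cKO) and 90.2 CPM (cluster 23, cKO). The unnamed cluster 18, led by Gsx1 and Cdkn1c, held 343 CPM in WT (319 to 369) and 350 CPM in cKO (322 to 381) and overlapped with cluster 7 in both. The unnamed cluster 29, with endothelial markers, stood at 296 and 396 CPM, a ratio of 1.34 (1.17 to 1.53). In thinned cells both receptors were seen together in 2.51% (1.80 to 3.41) of WT and 4.58% (3.64 to 5.68) of cKO glutamatergic neurons, and in 6.77% and 6.98% of GABAergic neurons. These shares are limited by the 3000 UMIs kept per cell and do not count the cells that express both.

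**Figure D3:**
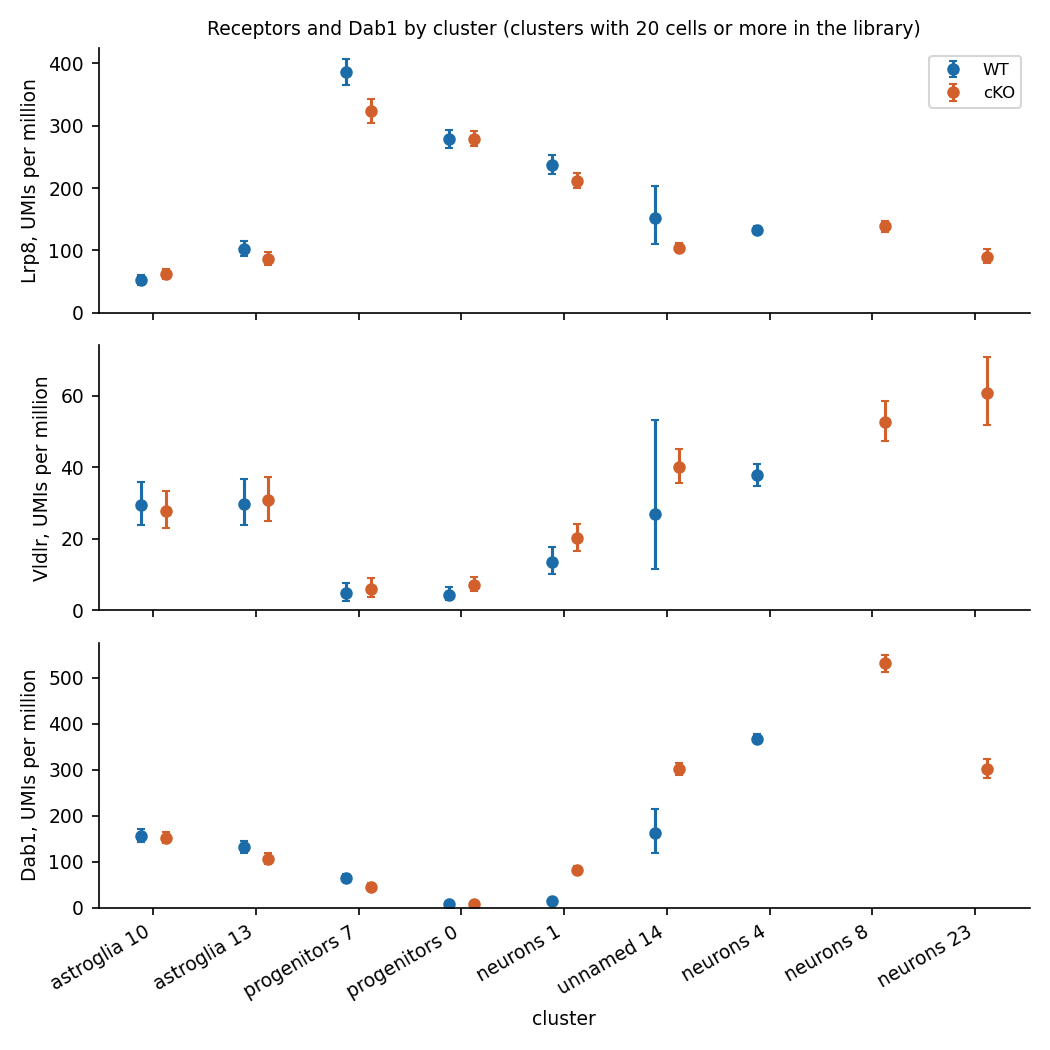
Lrp8, Vldlr and Dab1 in CPM (each panel from 0) in astroglial clusters 10 and 13, intermediate progenitors (7, 0), glutamatergic neurons (1, 4, 8, 23) and the unnamed cluster 14, with 95% Poisson intervals, WT blue and cKO orange; a cluster with fewer than 20 cells in a library is not drawn for it. Lrp8 is highest in cluster 7, Vldlr in clusters 8 and 23, and Dab1 is near its lowest in clusters 0 and 1 of WT.

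Dab1, the adaptor that the receptors need to signal, marked glutamatergic neurons. They held 297 CPM in WT (289 to 305) and 311 CPM in cKO (303 to 320), a ratio of 1.05 (1.01 to 1.09). Astroglia held 129 and 132 CPM, oligodendrocyte progenitors 127 and 162 CPM, and cycling progenitors 106 and 109 CPM; the WT levels of astroglia and oligodendrocyte progenitors overlapped. Cajal-Retzius cells, the source of the ligand, had 21.8 CPM in WT and 21.99 CPM in cKO, from 22 and 16 UMIs, a level near that of microglia at 24.7 and 17.4 CPM. Dab1 was thus present in the astroglial class, whose markers radial glia share, was lower in intermediate progenitors (30.1 and 20.5 CPM), and was high in the later glutamatergic clusters. None of the 4 genes was past 1.5-fold in glutamatergic neurons, where 3.48% of 13194 genes were, 1.45% higher and 2.03% lower. None was in intermediate progenitors, with 1.7% of genes, in astroglia, with 1.69%, or in cycling progenitors, with 0.538%.

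The class level in glutamatergic neurons again joined clusters that differed. Dab1 stood at 8.45 CPM (6.19 to 11.3) in cluster 0 and 15.1 CPM (11.4 to 19.5) in cluster 1 of WT, and at 368 CPM (358 to 378) in cluster 4. In cKO cluster 0 held 9.02 CPM (7.05 to 11.4), but cluster 1 held 82.7 CPM (75.6 to 90.3), and clusters 8 and 23 held 532 CPM (514 to 550) and 303 CPM (283 to 324). In the unnamed cluster 14, of 617 cKO and 26 WT cells, it was 301 CPM in cKO. Cluster 1 thus had a ratio of 5.49 (4.18 to 7.34), from 58 WT and 498 cKO UMIs. In this cluster 2 of the 4 genes were past 1.5-fold, Dab1 higher and Reln lower, where 4.26% of 11082 genes were past it, 2.21% higher and 2.05% lower. In cluster 1 of WT 2.13% (0.977 to 4.00) of thinned cells had UMIs of Dab1 and of a receptor, and 8.68% (6.84 to 10.8) in cKO.

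Marker genes were also measured beside Dab1 in cluster 1. Neurod2, a factor of glutamatergic neurons, stood at 578 (WT) and 835 CPM (cKO), and Mef2c at 53.2 and 266 CPM, while Eomes, of intermediate progenitors, was at 109 and 95.7 CPM. Of the 9 glutamatergic markers 7 were higher in cKO. The 12 astroglial markers, of cells that also carry Dab1, summed to 630 CPM in WT and 869 CPM in cKO, 9 of 12 higher, against 16364 CPM in WT astroglia, with Aldh1l1 at 0 in WT. The 9 intermediate progenitor markers had Neurog1 at 0 in WT. Their part in the difference was not tested. In the fine clusters the 527 cKO cells of fine cluster 13 held 116 CPM, and the 500 WT cells of fine cluster 17, led by Cntn2 and Rnd2 and with 7 cKO cells, held 49.0 CPM. In fine cluster 15, which both libraries filled, Dab1 had 20 UMIs in WT and 66 in cKO, a ratio of 2.23 (1.33 to 3.88). The difference between the libraries there was smaller than in cluster 1, and how many cells they share was not counted.

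GABAergic neurons had little Dab1 in WT and more in cKO. They held 16.8 CPM in WT (15.0 to 18.8) and 33.2 CPM in cKO (30.7 to 35.9), from 314 and 660 UMIs, a ratio of 1.98 (1.73 to 2.27). Free RNA would give 2.77 CPM in WT and 0.976 CPM in cKO. Dab1 was the only one of the 4 genes past 1.5-fold in this class, where 0.564% of 13647 genes were past it and 0.462% were higher. Cluster 11, with Lhx6, Lhx8 and Nkx2-1 of the medial ganglionic line, had 37.6 CPM in WT and 75.9 CPM in cKO, a ratio of 2.02 (1.52 to 2.71), and cluster 2 had 5.91 and 11.1 CPM, a ratio of 1.87 (1.20 to 3.01). Cluster 25 had the highest level of the class, 98.8 and 124 CPM with a ratio of 1.26 (0.860 to 1.90), with 30 WT and 162 cKO cells. With the clusters weighted equally the log2 ratio of 0.81 was 0.46, within 1.5-fold. The part of cell composition in the class ratio was not tested.

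The 9 glutamatergic markers were measured beside it. Summed over the GABAergic class they stood at 105 (WT) and 188 CPM (cKO), with 9 of 9 higher in cKO and none at 0, against 2969 and 4073 CPM in glutamatergic neurons. In cluster 11, where Dab1 had a ratio of 2.02, the sum was 65.3 CPM in WT and 66.6 CPM in cKO, and in cluster 25 it was 363 and 545 CPM, mostly Mef2c. In cluster 2 it was 70.1 and 119 CPM. Their part in the Dab1 difference was not tested beyond these values.

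Dab1 was lower in cKO in intermediate progenitors, with 30.1 CPM (26.6 to 34.0) in WT, 20.5 CPM (17.98 to 23.3) in cKO and a ratio of 0.681 (0.569 to 0.815). Most of this level came from cluster 7, at 65.0 and 46.1 CPM, with a ratio of 0.710 (0.576 to 0.873), and cluster 0 held 605 of 935 WT and 1095 of 1509 cKO cells. Among astroglial clusters, Dab1 had ratios of 1.15 (1.02 to 1.30) in cluster 6, 0.812 (0.701 to 0.941) in cluster 13 and 0.791 (0.671 to 0.932) in cluster 15, so the class ratio of 1.02 joined clusters on both sides.

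**Figure D4:**
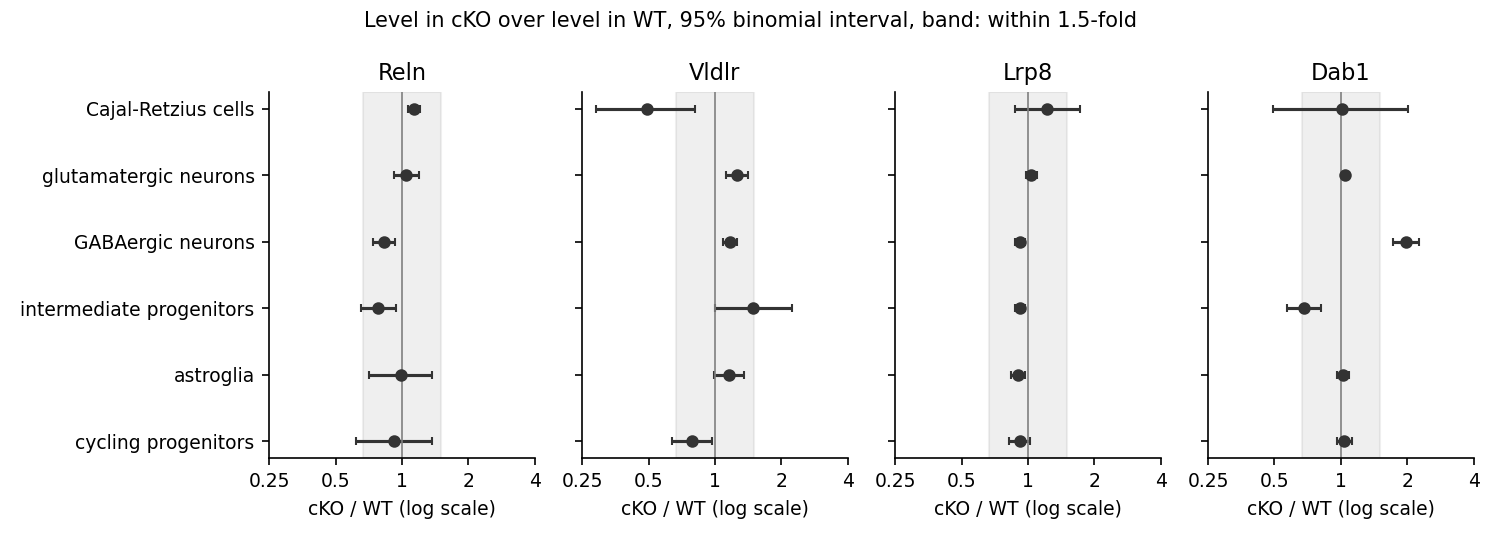
Ratio of the level in cKO to that in WT (log axis) for each gene in 6 named classes, with 95% conditional binomial intervals from 1 library per genotype; the grey band spans ratios within 1.5-fold of 1. Vldlr in Cajal-Retzius cells (0.492) and Dab1 in GABAergic neurons (1.98) lie outside the band.

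Other genes of the pathway were counted in 6 lists, again over the genes with at least 20 UMIs. The glutamatergic class joined different clusters, mostly cluster 4 in WT and clusters 1, 8 and 23 in cKO. The unnamed cluster 14, of 26 WT and 617 cKO cells and nearest to glutamatergic neurons, was outside it. The part of this in the ratios of the class was not tested. In glutamatergic neurons 4 of the 62 genes counted (6.45%) were past 1.5-fold, against 3.48% of all genes tested in the class. Without the added 5 CPM, which keeps low genes inside, 8 of the 62 (12.9%) were. The matching share of all genes is not given here. With 1 CPM added it was 7.95%, so the 8 were not read as a result about the lists. Among relatives of the reelin receptors, 2 of 7 were higher in cKO: Lrp1b, at 8.64 (WT) and 21.97 CPM (cKO) (ratio 2.54, 2.102 to 3.08), and Sorl1, a sorting receptor, at 9.59 and 22.7 CPM (2.37, 1.97 to 2.85). The median log2 ratio of these 7 was 0.027, against -0.013 over all genes. Lrp1 (79.2 and 79.0 CPM) and Lrp6 (49.7 and 49.8 CPM) had ratios of 0.997 and 1.00. Among the 11 kinases and adaptors that act on or bind Dab1, 1 was lower, Pik3r1, the regulatory subunit of PI3 kinase, at 92.4 and 47.7 CPM (0.516, 0.472 to 0.563). Fyn, the kinase that phosphorylates Dab1, stood at 220 and 217 CPM with a ratio of 0.986 (0.942 to 1.03), and the list's median was 0.013.

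In the same class, which joined different clusters in WT and cKO, 24 cytoskeleton and adhesion effectors were counted. Of these 1 was lower, Nectin3, which mediates the contact of migrating neurons with Cajal-Retzius cells, at 69.1 (WT) and 23.4 CPM (cKO) (0.339, 0.300 to 0.381). The N-cadherin gene Cdh2, which acts with the nectins, was at 399 and 498 CPM (1.25, 1.21 to 1.29), and Mapt, the microtubule protein tau, at 967 and 706 CPM (0.730, 0.712 to 0.747). Map1b, Cfl1 and Dcx, further proteins of the cytoskeleton, had ratios from 0.895 to 0.939. No gene passed 1.5-fold on CPM plus 5 among the 7 proteases that cut reelin, the 6 other ligands and turnover factors or the 7 genes of Dab1 turnover, where Cul5 and Rnf7, parts of the ubiquitin ligase, had ratios of 1.04 and 0.927. Among the low genes of these lists, Adamts2, a protease that cuts reelin, stood at 3.53 and 1.12 CPM (0.317, 0.174 to 0.546), and Spon1, a ligand of the receptors, at 2.79 and 1.38 CPM (0.495, 0.283 to 0.834). Both were singled out after their values were seen. The medians of these lists were -0.17, 0.095 and -0.0061, and that of the effectors was -0.049.

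**Figure D5:**
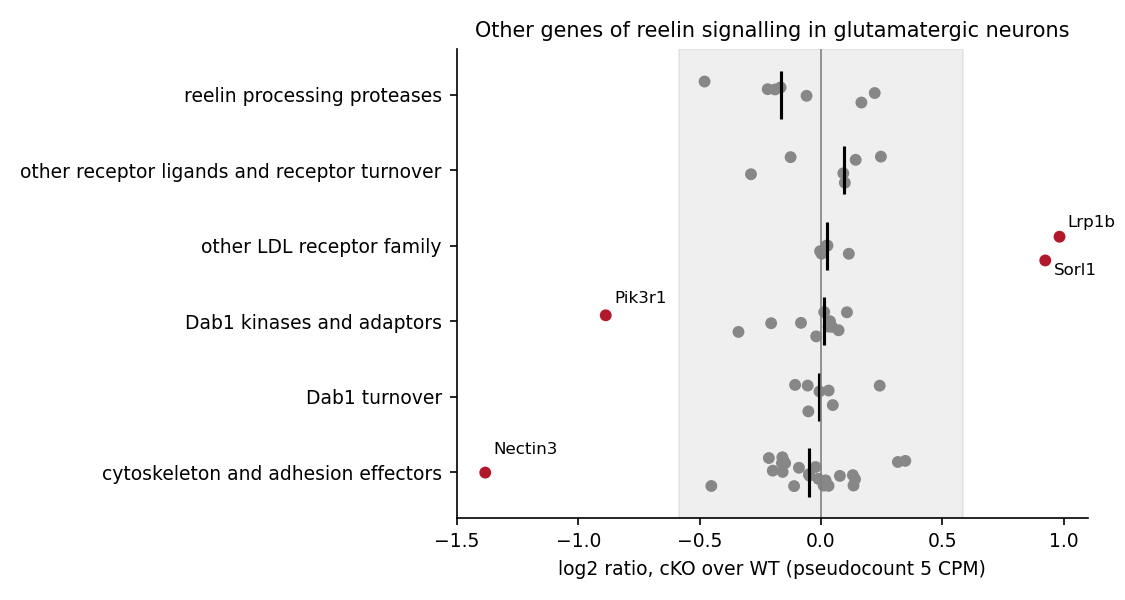
Log2 ratio (cKO over WT, CPM plus 5) of 62 other genes of the pathway in glutamatergic neurons, 1 point per gene in 6 lists, with black bars at the list medians and a grey band within 1.5-fold. Lrp1b and Sorl1 lie to the right of the band, Pik3r1 and Nectin3 to the left (red), and the rest lie inside it.

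In GABAergic neurons none of the 58 list genes counted was past 1.5-fold on CPM plus 5, against 0.564% of all genes. In intermediate progenitors 1 of 56 was, against 1.7%: Sorl1, at 22.8 and 48.3 CPM (2.12, 1.80 to 2.51), and in astroglia 1 of 65 was, against 1.69%: Pcsk5, a proprotein convertase, at 33.0 and 18.4 CPM (0.557, 0.478 to 0.648). In Cajal-Retzius cells 3 of 46 (6.52%) were, against 10.6% of all genes. Of these Crkl was higher, at 26.8 and 48.1 CPM (1.80, 1.06 to 3.09), and Nck2 and Nectin3 were lower with intervals that included 1. Without the added 5 CPM, 4 of 58 genes were past 1.5-fold in GABAergic neurons and 8 of 56 in intermediate progenitors. In astroglia 3 of 65 were, and in Cajal-Retzius cells 4 of 46. The matching shares of all genes are not given here.

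The genes whose levels followed each member across clusters were found over 33 clusters of both libraries summed, by Pearson correlation of log2 levels among 7271 genes; the clusters share libraries and are not independent, so the values are descriptive. For Reln they were 5330417C22Rik (0.87), Rcan2 (0.82), A330076H08Rik, Gm27199 and Slc22a15, all of them highest in the Cajal-Retzius cluster. For Vldlr they were Nudt11 (0.85), Snap91, Agtpbp1, Smarca1 and Prkar2b. For Lrp8 the closest was Chmp1b (0.73), followed by Nbr1, Stx6, Igf1r and Rad54l2, and for Dab1 it was Lmo7 (0.76), followed by Nckap5, Slc35f1, Mrps36 and Klhl5. The 4 genes did not follow one another: the correlations between them ranged from -0.38, between Reln and Dab1, to 0.39, between Reln and Vldlr.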

How the data were processed

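Single-cell libraries were made with a 10x Genomics 3' kit, per the labels' protocols. The authors deposited unfiltered count matrices of UMIs. Per the file headers they come from Cell Ranger 7.1.0, but version 2.1.1 and the mm10 build stand in the submitters' processing notes. The annotation release and the intron and strand settings are not given in the sources used here.

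Barcodes were called cells above 3348 UMIs in WT and 3341 in cKO, the 99th percentile of the top 5000 barcodes divided by 10, giving 9166 and 10806. Cells with fewer than 500 genes or over 10% mitochondrial UMIs were left out, as were 330 WT (3.68%) and 526 cKO (4.93%) doublets called by scrublet in scanpy 1.11.5. Both libraries were clustered together on 2000 variable genes, 30 principal components and 15 neighbours, by Leiden (leidenalg 0.10.2, resolution 1). Reln, Vldlr, Lrp8 and Dab1 were left out of the variable genes and markers. A cluster was named when at least 3 markers of a class were in 20% of its cells at 1.5 times their level elsewhere, with a score 1.5 times that of the next class. The name Cajal-Retzius also needed Trp73, a rule set after the clusters were seen.

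UMIs were summed per class or cluster and library and given per 1000000 UMIs (CPM). Levels have exact Poisson, ratios conditional binomial and shares of cells or UMIs Clopper-Pearson intervals of 95%, computed with scipy 1.17.1, for counting error only. A gene was counted as past 1.5-fold on CPM plus 5 when it had at least 20 UMIs over both libraries. The calculation was tested on simulated data. With 1 library per genotype no test was made. Shares of cells with a UMI come from cells thinned to 3000 UMIs. Free RNA was estimated from haemoglobin, with neurons over 0.1% haemoglobin left out. The named genes are the 4 members, the pathway genes past 1.5-fold in glutamatergic neurons or among the 4 highest of a list, and the 5 most alike in pattern among genes reaching 50 CPM in clusters of at least 50 cells; pathway genes past 1.5-fold in other classes are named besides. Members and lists were chosen with earlier results of these data known. Gene positions are from GENCODE, which matched 32158 of 32285 identifiers, and promoter sequences from RefSeq, where all 4 genes matched. Alternatives changed the UMI and mitochondrial limits, doublets, resolution, unnamed clusters, weighting, depth, pseudocount, scaling and free RNA. Some marker genes are not reported here.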

Additional observations from a re-analysis of the deposited data

Results flagged for a closer look

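For 3 of the genes the ratio of cKO to WT lay above 1 in some classes of cells and below 1 in others, with 95% counting intervals on either side. The difference between classes was not tested, since there was 1 library per genotype. Reln had a ratio of 1.13 in Cajal-Retzius cells, 0.827 in GABAergic neurons and 0.781 in intermediate progenitors. Vldlr had a ratio of 1.26 in glutamatergic neurons, 1.17 in GABAergic neurons and 1.49 in intermediate progenitors, against 0.492 in Cajal-Retzius cells and 0.788 in cycling progenitors. Dab1 had a ratio of 1.05 in glutamatergic neurons and 1.98 in GABAergic neurons, against 0.681 in intermediate progenitors. The mix of clusters in these classes differed between the libraries, and its part in the ratios was not tested.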

How the results depend on the processing

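Each alternative is given as the log2 ratio of cKO to WT unless said otherwise, and the cause of a difference was not tested. With cells thinned to 3000 UMIs, Reln was 0.038 in Cajal-Retzius cells (0.18 as reported) and -0.10 in GABAergic neurons (-0.23). Lrp8 in glutamatergic neurons, 0.051 as reported, was -0.093 with doublets kept, -0.090 and -0.11 at cluster resolutions 0.5 and 2, -0.11 with unnamed clusters added to the nearest class and -0.16 with clusters weighted equally, which leaves cluster 1 alone. Dab1 there, 0.066 as reported, was 0.16 with the UMI minimum doubled, 2.13 with clusters weighted equally and 0.13 as a mean over cells. Equal weights also turned Vldlr in GABAergic neurons to -0.069 and Lrp8 in astroglia to 0.14. Reln in glutamatergic neurons, 0.057 as reported, ranged from -0.77 to 0.56 and kept its sign in 5 of 12 alternatives. Vldlr kept its sign in 12 of 12 alternatives in glutamatergic neurons (0.26 to 0.44) and in 13 of 13 in Cajal-Retzius cells (-1.23 to -0.43, within 1.5-fold at -0.43, with cluster 24 or the unnamed clusters added), as Dab1 did in 12 of 12 in GABAergic neurons (0.46 to 0.96, within 1.5-fold at 0.46, with equal weights) and in intermediate progenitors (-0.53 to -0.13). The Cajal-Retzius class is a single cluster, and both other resolutions and equal weights returned the reported value. Adding cluster 24 and adding the unnamed clusters also gave the same value as each other, so fewer than 13 of these were separate checks. The share of WT Reln UMIs in Cajal-Retzius cells was 57.8% with unnamed clusters added, likewise 57.8% with cluster 24 included, 47.1% thinned and 53.7% with free RNA subtracted. In cKO it was 55.3%, 55.3% and 42.6% for the first 3, and 52.4% with the UMI minimum doubled. The Trp73 rule that left cluster 24 out of the reported class was set after the clusters were seen. With a pseudocount of 1 CPM, 7.95% of genes were past 1.5-fold in glutamatergic neurons. No paired analysis was possible because each genotype has 1 library. The small number of Cajal-Retzius cells limits their values: Dab1 there rests on 22 and 16 UMIs.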
